A study of Mus musculus with 6 samples.

Results

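The genes described here are the 80 respiratory chain genes found in the gene lists of both preparations, 13 encoded by the mitochondrial genome and 67 by the nucleus. They were chosen by name among 27514 Ensembl identifiers that the gene lists of the cortex (31053 genes) and the hippocampus (27998 genes) shared. Every protein-coding gene of mitochondrial DNA was taken (symbols that begin with mt-), and the nuclear genes were those of the Nduf, Sdh, Uqcr and Cox4 to Cox8 families whose symbols met the rule. The rule left out Ndufab1 of complex I, Cyc1 of complex III and the Ndufaf assembly factors. By complex, the nuclear genes were 35 of complex I, 4 of complex II, 8 of complex III and 20 of complex IV. Ndufa4 and Ndufa4l2 were counted with complex IV.

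The respiratory chain sits in the inner mitochondrial membrane, where complexes I and II take electrons from NADH and succinate and pass them through complex III to complex IV, which reduces oxygen. Complexes I, III and IV are built from subunits of both genomes, the core ones made inside the mitochondrion, whereas complex II is wholly nuclear. Several complex IV subunits exist as paired isoforms whose use depends on tissue or oxygen, with versions known from heart and skeletal muscle, lung or testis.

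Single-cell RNA sequencing (scRNA-seq) was done on suspensions from the cerebral cortex of 3-week-old mice (prep 1) and the hippocampus of 5-week-old mice (prep 3), all female wild-type C57Bl/6J. Tissue was dissociated with enzymes and cleared of myelin on Percoll animal by animal, after which the cells of 3 mice per preparation were pooled and sequenced as 3 technical replicates on the 10x platform without sorting. There were thus 6 libraries but 1 biological sample per region, so no test was possible, and each SD below is over technical replicates only. Region, age and preparation changed together, as did the gene list used for counting, and their parts cannot be told apart.

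Values are unique molecular identifiers (UMIs), each of which stands for 1 captured RNA molecule. The libraries held 39662203 to 50024850 UMIs. Cells entered the analysis when they had 250 to 6000 genes and less than 25% of their UMIs from mitochondrial genes, 4351 to 4587 per cortical and 4574 to 4830 per hippocampal replicate. Cells were clustered with the 80 genes left out, so that none of them shaped the clusters, and clusters were called "X-like" from marker lists. The lists hold neither Ndufa4l2 nor Cox4i2. Checked cell by cell against the same markers, 5848 of 5850 cortical and 5836 of 5838 hippocampal microglia-like cells kept their class, and the endothelial-like and astrocyte-like cells did so in 94.4% to 99.0%. The share was 25.1% for cortical oligodendrocyte-like, 40.7% for cortical erythroid-like, 48.8% for cortical macrophage-like, 42.9% for hippocampal OPC-like and 24.5% for monocyte- or neutrophil-like cells, whose values thus mix several types. The hippocampal libraries shared 283 to 330 barcodes with another library of the same preparation, against 22 to 33 in the cortex, and 67.6% of the choroid epithelial-like cells carried such a barcode.

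Mitochondrial-encoded RNA took the largest share of UMIs in astrocyte-like, smooth muscle-like (VSMC-like) and choroid epithelial-like cells and a small one in microglia-like cells. In cortical astrocyte-like cells the 13 mitochondrial genes held 11.9%, 12.1% and 11.9% of all UMIs in the 3 replicates (11.96% ± 0.091, SD, n = 3, 2700 cells). Cortical endothelial-like cells had 6.09%, 6.15% and 6.01% (6.08% ± 0.0728, 2480 cells). Cortical microglia-like cells, the resident macrophages of the brain, had 4.47%, 4.38% and 4.31% (4.39% ± 0.0809, 5850 cells). The same order held in the hippocampus. Astrocyte-like cells there had 8.69%, 8.90% and 9.02% (8.87% ± 0.164, 2000 cells), endothelial-like cells 5.64%, 5.57% and 5.59% (5.60% ± 0.0391, 2154 cells), and microglia-like cells 3.31%, 3.37% and 3.29% (3.33% ± 0.0421, 5838 cells). In both preparations the replicates of these 3 classes did not overlap, and the share of astrocyte-like cells was 2.73 times that of microglia-like cells in the cortex and 2.66 times in the hippocampus.

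VSMC-like cells, the contractile cells of arteries and arterioles, reached 10.4% ± 0.645 in the cortex (10.9%, 10.7% and 9.71%) and 10.9% in the hippocampus (11.5%, 10.6% and 10.6%). Pericyte-like cells, the mural cells of capillaries, had 6.74% (6.55%, 7.02% and 6.61%) and 5.74%. The mural classes thus did not overlap in the cortex. Choroid epithelial-like cells, which secrete cerebrospinal fluid and were named in the hippocampal preparation only, had 12.1%, 8.47% and 13.4% (11.5% ± 2.54, 825 cells), so replicate 2 lay well below the others. Erythroid-like cells had the lowest cortical share, 3.21%, and oligodendrocyte-like cells had 7.81% in the cortex and 7.61% in the hippocampus.

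The nuclear genes, given as a share of nuclear-encoded UMIs so that mitochondrial RNA did not enter the denominator, placed the 3 largest classes in the same order. Microglia-like cells had 0.947%, 0.929% and 0.946% in the cortex (0.941%), and 0.853%, 0.863% and 0.850% in the hippocampus (0.855%). Endothelial-like cells had 1.81%, 1.77% and 1.81% in the cortex and 1.62%, 1.64% and 1.63% in the hippocampus. Astrocyte-like cells had 2.61%, 2.61% and 2.62% in the cortex and 1.96%, 2.09% and 2.10% in the hippocampus. The 3 classes were thus apart in every replicate. Other classes changed place, since hippocampal oligodendrocyte-like cells were above endothelial-like cells in mitochondrial but below them in nuclear share (1.57%), and cortical pericyte-like cells had a nuclear share of 2.87%, or 2.30% in the cells whose cluster and own markers agreed. Choroid epithelial-like cells stood highest with 5.14%, 5.69% and 4.95% (5.24% ± 0.382). Both measures for each class are drawn in the plot of shares by class.

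**Figure D1:**
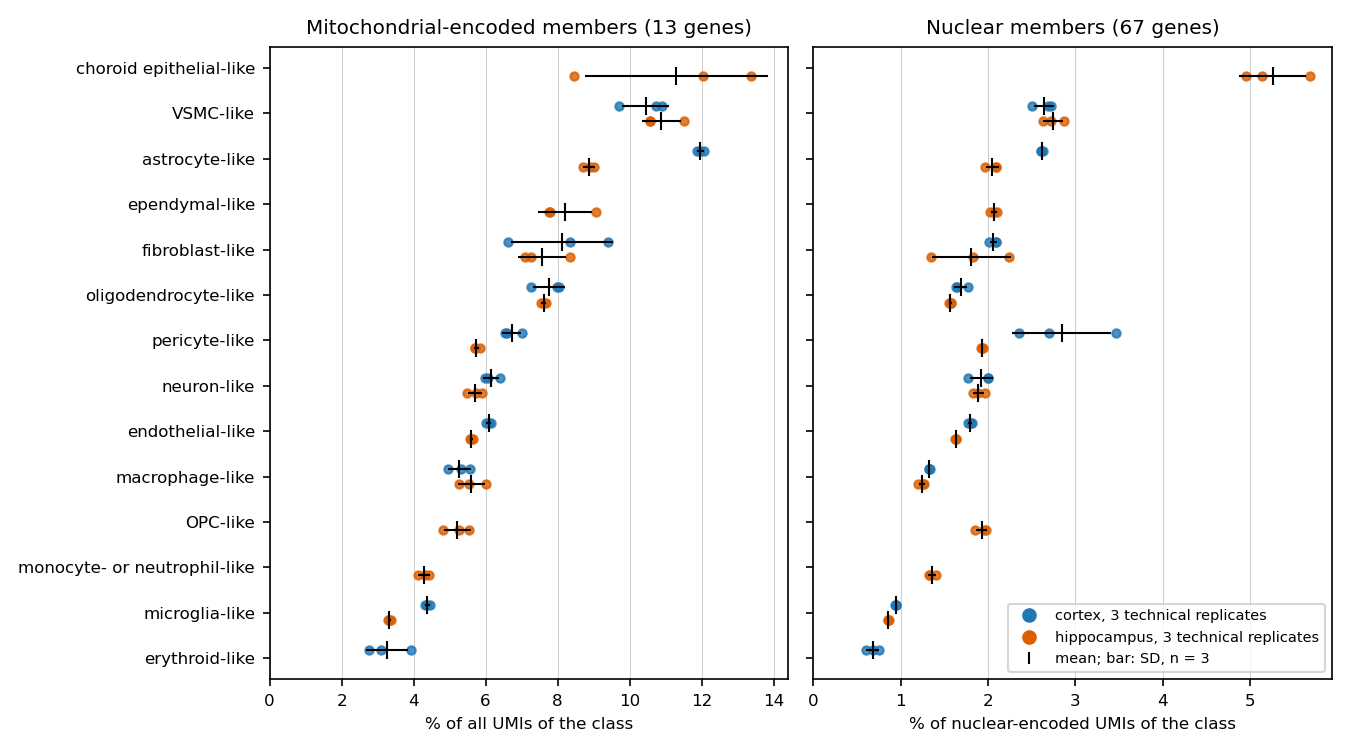
Share of all UMIs held by the 13 mitochondrial genes (left, %) and share of nuclear-encoded UMIs held by the 67 nuclear genes (right, %) in each class, with a point for each technical replicate, a tick at their mean and a bar of 1 SD to each side. Microglia-like cells lie low on both axes, at 4.39% and 0.941% in the cortex, and choroid epithelial-like cells reach 5.24% on the nuclear measure.

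The shares of the genomes did not stay in one ratio. In endothelial-like cells there were 3.60 mitochondrial UMIs per UMI of a nuclear respiratory chain gene in the cortex and 3.64 in the hippocampus, whereas astrocyte-like cells had 5.20 and 4.75 and microglia-like cells 4.88 and 4.02. Choroid epithelial-like cells, with shares high in both genomes, had a low ratio of 2.48 (2.66, 1.63 and 3.12). Hippocampal OPC-like and neuron-like cells were also low at 2.86 and 3.21, and hippocampal oligodendrocyte-like cells high at 5.26 (5.28, 5.22 and 5.27). Split by complex, the ratio of mitochondrial to nuclear subunit UMIs ran over classes from 1.50 to 2.86 for complex I, from 1.47 to 4.28 for complex III and from 2.40 to 6.91 for complex IV. Cortical pericyte-like cells, whose cluster was mixed with cells of the choroid type, are left out of these ranges (1.48, 2.10 and 2.39). Complex IV was highest in hippocampal oligodendrocyte-like and lowest in choroid epithelial-like cells.

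Other genes of mitochondrial energy metabolism were taken as lists. These were not free of respiratory chain subunits, since the electron carriers included Cyc1 and the assembly factors Ndufab1. The nuclear ATP synthase genes, which make the enzyme that uses the proton gradient, held 0.397% of nuclear-encoded UMIs in cortical microglia-like, 0.690% in endothelial-like and 0.928% in astrocyte-like cells, and 2.14% in choroid epithelial-like cells. The electron carriers held 0.0341%, 0.0523% and 0.0994% in the same 3 cortical classes and 0.181% in choroid epithelial-like cells. The citrate cycle enzymes, which supply the electrons, held 0.0785%, 0.0871%, 0.190% and 0.212%. The assembly factors held 0.154%, 0.241%, 0.288% and 0.361%. All 4 lists ranked these classes as the nuclear respiratory chain genes did, although in the hippocampus the assembly factors were lower in astrocyte-like (0.223%) than in endothelial-like cells (0.236%). The list for mitochondrial transcription and RNA handling was nearly level, at 0.0493%, 0.0485%, 0.0518% and 0.0460%. The regulators of biogenesis held 0.0117%, 0.00937%, 0.0231% and 0.0122%.

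Taken gene by gene, a difference between classes is given as the log2 ratio of levels in CPM, the usual scaling of UMIs to library size, with 5 CPM added to each side. It was computed for genes with at least 50 UMIs over both classes, and past 2-fold means a size of at least 1 on that scale. In the cortex, all 13 mitochondrial genes were higher in astrocyte-like than in microglia-like cells in every replicate, by 0.59 (mt-Nd1) to 1.72 (mt-Atp6), with 10 past 2-fold and a median of 1.43, where 40.8% of all genes were higher in every replicate. Among the 64 nuclear genes with enough UMIs, 43 were past 2-fold higher and 2 lower, around a median of 1.17. Among all 12985 genes measured in this comparison 19.7% were past 2-fold higher and 17.2% lower. In the hippocampus 12 of the 13 mitochondrial genes and 31 of 66 nuclear genes were past 2-fold higher in astrocyte-like cells, where 18.7% of all genes were, and 1 nuclear gene was past 2-fold lower, where 16.8% of all genes were.

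The gene at the upper end was Ndufa12, a complex I accessory subunit, in the cortex. It had 468, 495 and 543 CPM in astrocyte-like cells and 88.0, 87.8 and 90.2 CPM in microglia-like cells, a log2 ratio of 2.43. In the hippocampus it was Ndufc2, also of complex I, with 945, 966 and 982 CPM against 222, 227 and 226 CPM, a log2 ratio of 2.08. These replicates were far apart. At the other end in both preparations stood Cox7a2l, described with the isoforms.

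Endothelial-like cells were above microglia-like cells in genes of both genomes. In the cortex 23 of 64 were past 2-fold higher, where 16.4% of all genes were, with a median of 0.78, but only mt-Atp8 of the 13 mitochondrial genes (log2 ratio 1.06), with a median of 0.46. In the hippocampus 25 of 64 nuclear genes were past 2-fold higher, where 17.1% of all genes were, and 2 mitochondrial genes, with medians of 0.87 and 0.66. Between astrocyte-like and endothelial-like cells, 8 of 64 nuclear genes were past 2-fold higher in astrocyte-like cells in the cortex and 4 of 65 in the hippocampus, against 16% and 15.8% of all genes, so these shares did not exceed those of all genes, and the medians were 0.48 and 0.23. Of the 13 mitochondrial genes, 4 were past 2-fold higher in the cortex and 0 in the hippocampus, with medians of 0.88 and 0.60.

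Over all named classes of at least 50 cells, 49 of the 67 nuclear genes had their highest hippocampal level in choroid epithelial-like cells, and 43 had their lowest in microglia-like cells. In the cortex 54 were lowest in erythroid-like cells. Highest cortical levels were spread over pericyte-like (27 genes), astrocyte-like (17) and VSMC-like (14) cells, and the part of the cells of the choroid type in the pericyte-like cluster in this count was not tested. In cortical cells whose cluster and own markers agreed, the nuclear share was 2.30% in pericyte-like, 2.64% in astrocyte-like and 2.71% in VSMC-like cells. The counts of highest and lowest classes were not made over all genes, so they cannot show whether these genes differ from others. UMIs count captured 3′ ends, so levels were not divided by transcript length. By median over classes, the most abundant nuclear gene of complex I was Ndufa13 (412 CPM in the cortex, 439 CPM in the hippocampus) and the least abundant Ndufs1, the largest subunit (50.3 and 67.7 CPM). For complex II these were Sdhb, the iron-sulfur subunit (131 and 145 CPM), and Sdhc, a membrane anchor (77.7 and 85.8 CPM). For complex III they were Uqcrh, the hinge protein (544 and 447 CPM), and Uqcrc1, a core protein (103 and 111 CPM). For complex IV Cox4i1 led in the cortex (913 CPM) and Cox8a in the hippocampus (967 CPM), while the testis isoform Cox7b2 had a median of 0.

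Isoform choice was clearest in pericyte-like cells, which used Ndufa4l2 in place of Ndufa4. Ndufa4 is a small subunit now placed with complex IV, and Ndufa4l2 is its paralog, known as a gene induced by low oxygen. On GRCm38, Ndufa4l2 lies at chr10:127514967-127517154 on the plus strand and Ndufa4 at chr6:11900292-11907497 on the minus strand. Their coding sequences, of 264 and 249 bases, are shown because the isoform share rests on telling these genes apart. Capitals mark the bases that differ from the other gene in an alignment of both, including bases with no partner. Over 245 aligned bases 67.8% were identical, and the longest shared run was 28 bases, in the stretch of lower case in the middle of both.
Ndufa4: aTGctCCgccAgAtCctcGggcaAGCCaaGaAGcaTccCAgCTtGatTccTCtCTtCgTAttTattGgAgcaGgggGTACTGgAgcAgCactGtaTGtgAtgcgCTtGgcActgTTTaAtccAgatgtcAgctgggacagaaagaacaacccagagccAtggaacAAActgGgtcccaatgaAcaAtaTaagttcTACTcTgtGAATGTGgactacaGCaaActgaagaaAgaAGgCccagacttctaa
Ndufa4l2: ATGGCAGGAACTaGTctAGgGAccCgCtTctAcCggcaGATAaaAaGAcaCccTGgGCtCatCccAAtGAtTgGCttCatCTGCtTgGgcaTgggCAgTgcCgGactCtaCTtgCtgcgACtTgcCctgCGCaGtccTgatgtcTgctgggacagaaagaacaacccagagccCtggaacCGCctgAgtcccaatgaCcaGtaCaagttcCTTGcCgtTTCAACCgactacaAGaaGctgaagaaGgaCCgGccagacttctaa

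The cluster of cortical pericyte-like cells was not pure, which mattered for this share. Among its 192 cells, 158 also had pericyte as their class by their own markers, and 8 were classed as choroid epithelial-like. These 8 cells, of which 4, 3 and 1 came from replicates 1, 2 and 3, held 274 Ndufa4 UMIs and 0 Ndufa4l2 UMIs, against 33 Ndufa4 UMIs in the 158 cells. Isoform values for mural cells are therefore given for cells whose cluster and own markers agreed, a choice made after seeing the data, beside the value for the whole cluster.

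In these cortical pericyte-like cells Ndufa4l2 made up 95.6%, 97.1% and 98.2% of the UMIs of both genes (97.1% ± 1.29, 1107 of 1140 UMIs). In the hippocampus it made up 97.1%, 98.8% and 97.0% (97.7% ± 1.03, 3202 of 3279 UMIs, 417 cells). Its level was 1681, 1707 and 2205 CPM in the cortex and 1781, 1779 and 1774 CPM in the hippocampus, while Ndufa4 was at 55.6 and 42.8 CPM. The preparations overlapped in both isoform share and level. In the whole clusters the share was 76.4% ± 18.8 in the cortex (59.3%, 75.6% and 96.7%) and 96.8% in the hippocampus.

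VSMC-like cells used both genes. Ndufa4l2 made up 34.9%, 44.1% and 40.8% in the cortex (40.04%) and 20.1%, 31.9% and 36.0% in the hippocampus (29.6%), below every pericyte-like replicate, with Ndufa4 at 650 and 706 CPM. In the whole clusters the share was 44.5% and 31.0%. Fibroblast-like cells came next, with 15.8% in the cortex (12.3%, 13.8% and 19.2%, 57 cells) and 22.3% in the hippocampus (15.6%, 19.0% and 28.7%, 51 cells). The replicates of hippocampal VSMC-like and fibroblast-like cells overlapped. Endothelial-like cells had 1.41% and 2.57%, astrocyte-like cells 0.121% and 0.154%, and microglia-like cells 0.173% and 0.421%. Thinned to 1000 UMIs per cell, 74.2% of cortical and 79.0% of hippocampal pericyte-like cells held an Ndufa4l2 UMI (83.3% and 92.5% before thinning), against 0.0513% and 0.137% of microglia-like cells. The median depth was 3762 UMIs in cortical pericyte-like and 5499 UMIs in cortical microglia-like cells.

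Cox4i2, the isoform of the largest nuclear complex IV subunit that responds to oxygen, was the other pericyte gene. It lies at chr2:152754173-152765037 and its common partner Cox4i1 at chr8:120668222-120674207, both on the plus strand, and their coding sequences were 69.2% identical. Unlike Ndufa4l2, it did not replace its partner. Cox4i2 made up 51.9%, 56.4% and 51.9% of the UMIs of the pair in cortical pericyte-like cells (53.6% ± 2.57) and 54.9%, 56.3% and 53.8% in hippocampal ones (55.0% ± 1.27). Its level was 901, 1099 and 1026 CPM in the cortex and 903, 979 and 854 CPM in the hippocampus, beside 879 and 746 CPM of Cox4i1. The preparations again overlapped. In the whole clusters the share was 42.5% (33.7%, 44.3% and 51.1%) and 54.4%. VSMC-like cells had 6.19% and 8.11% (whole clusters 7.27% and 8.25%), and astrocyte-like cells 1.24% and 0.81%. Over all nuclear genes, Cox4i2 and Ndufa4l2 were the only ones at least 3 times above the median class in the same class of both preparations at 20 CPM or more. Genes highest in choroid epithelial-like or ependymal-like cells could not meet this rule, because those classes were named in the hippocampus only.

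**Figure D2:**
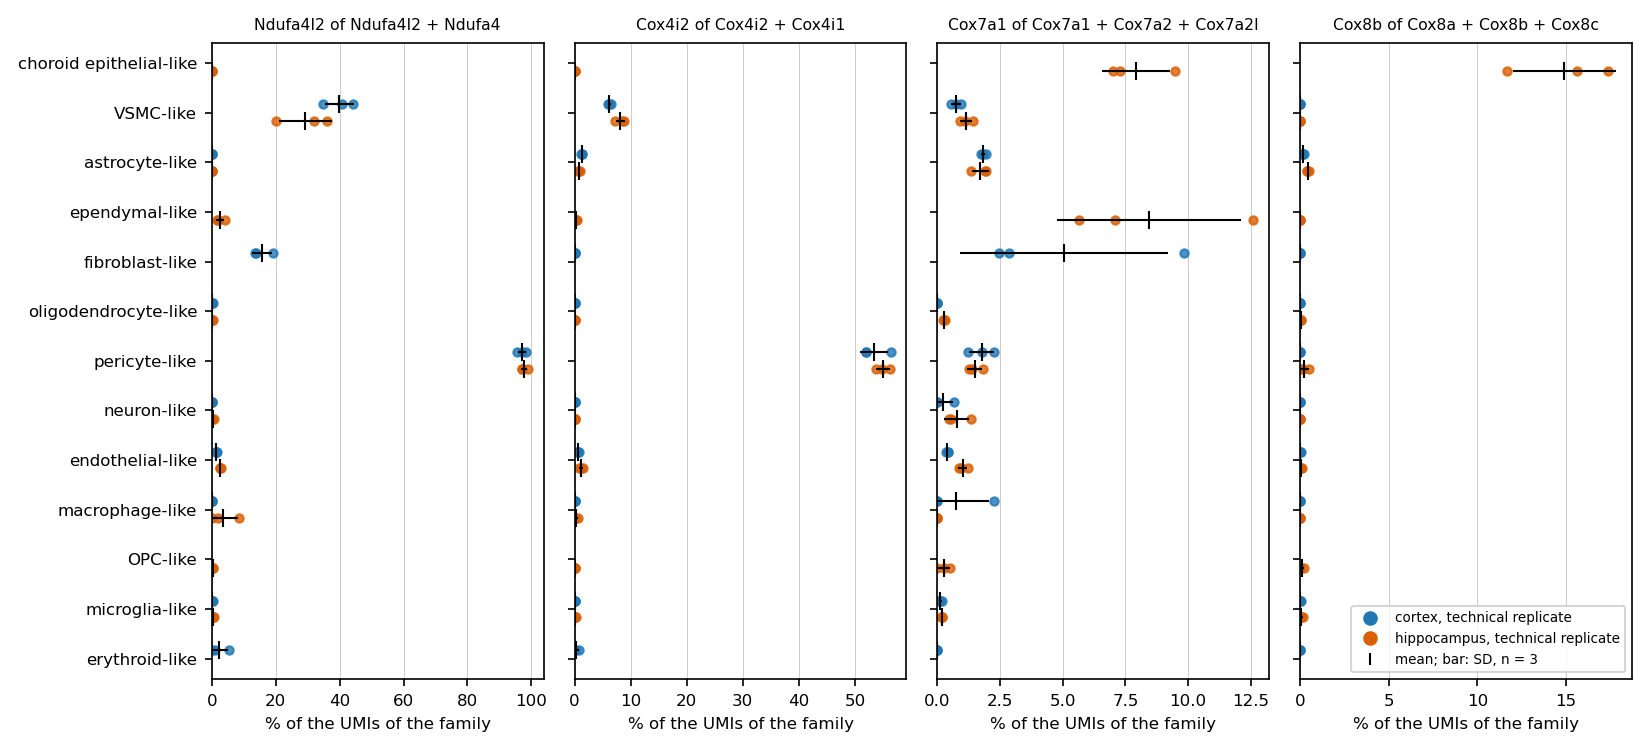
Share of Ndufa4l2, Cox4i2, Cox7a1 and Cox8b among the UMIs of their isoform family (%) by class, with a point for each technical replicate, for cells whose cluster and own markers agreed in classes of at least 50 such cells. Pericyte-like cells stand at 97.1% and 97.7% for Ndufa4l2 and at 53.6% and 55.0% for Cox4i2, and choroid epithelial-like cells are the only class high in Cox8b.

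Deep clusters with markers of both pericytes and endothelial cells, left unnamed, had intermediate values. In the cortex 204 such cells had an Ndufa4l2 share of 55.2% and a Cox4i2 share of 27.3%, and in the hippocampus 178 cells had 64.4% and 31.5%. The genes most like these isoforms over 23 class levels (log2 of CPM plus 5, Pearson's r among 12485 genes, all from the same 6 libraries) were Nfatc4 (r = 0.99), Gper1, Pla2r1, Frk and Foxs1 for Ndufa4l2. For Cox4i2 they were Higd1b (r = 0.96), Ano1, Tbx3os1, Notch3 and Tbx2. Higd1b is itself on the list that named the pericyte-like cells. The isoforms had an r of 0.89 with each other.

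Choroid epithelial-like cells carried Cox8b, a muscle isoform of complex IV. They shared the muscle isoform Cox7a1 with ependymal-like and fibroblast-like cells, while Cox6a2, another muscle isoform, was found mostly in microglia-like cells. Cox8b, known as the heart and skeletal muscle isoform, lies at chr7:140898945-140900446 and the general isoform Cox8a at chr19:7215153-7217616, both on the minus strand. Their coding sequences are shown to let both isoforms be told apart, since 56.4% of 204 aligned bases were identical and the longest shared run was 10 bases. Capitals mark the bases that differ from the other gene.
Cox8a: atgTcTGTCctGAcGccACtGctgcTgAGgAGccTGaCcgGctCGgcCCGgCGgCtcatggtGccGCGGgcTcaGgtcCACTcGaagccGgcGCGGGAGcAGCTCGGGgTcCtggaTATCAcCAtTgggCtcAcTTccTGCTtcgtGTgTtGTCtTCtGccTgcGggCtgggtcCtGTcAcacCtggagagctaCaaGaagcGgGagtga
Cox8b: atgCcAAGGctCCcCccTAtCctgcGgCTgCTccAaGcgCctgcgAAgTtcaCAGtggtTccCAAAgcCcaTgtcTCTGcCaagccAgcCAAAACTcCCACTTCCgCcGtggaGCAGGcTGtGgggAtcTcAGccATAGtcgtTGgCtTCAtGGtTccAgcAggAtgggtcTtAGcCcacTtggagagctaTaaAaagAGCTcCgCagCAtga

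Cox8b had 737, 531 and 600 CPM in choroid epithelial-like cells and made up 17.2%, 11.8% and 15.7% of the UMIs of the Cox8 family (15.2%, 1861 of 12281 UMIs). Without cells that shared a barcode with another library the share was 16.2% (267 cells). Every other hippocampal class had at most the 0.416% of astrocyte-like cells, and microglia-like cells had 0.0693%. Choroid epithelial-like cells were thus apart from all others in each replicate. Thinned to 1000 UMIs, 30.8% of 318 choroid epithelial-like cells held a Cox8b UMI (25.1% of all 825 before thinning, 507 cells left out), against 0 of the microglia-like cells. In the cortex, where no such cluster was named, 7 cells of the choroid type by their own markers had a share of 7.03% (31 of 441 UMIs, 95% exact binomial interval 4.83% to 9.83%). That interval, like the others, covers counting error only.

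Cox7a1, the muscle isoform of Cox7a, made up 7.84% of its family in choroid epithelial-like cells (7.28%, 6.999% and 9.50%) and 8.46% in ependymal-like cells (6.94%, 5.81% and 12.9%), which line the ventricles. Cox6b2, known from testis, made up 18.7% (19.1%, 16.5% and 20.5%) and 22.8% (21.8%, 22.3% and 24.8%). Choroid epithelial-like and ependymal-like cells overlapped for Cox7a1 but not for Cox6b2. Fibroblast-like cells had UMIs of both, with 16.6% Cox6b2 and 4.56% Cox7a1 in the cortex and 8.48% and 12.4% in the hippocampus, where the Cox7a1 replicates ran from 2.78% to 17.9%. That hippocampal Cox7a1 share rested on 37 UMIs in 9.80% of 51 cells, and it was 0.629% under a 10% mitochondrial limit and 6.29% without replicate 2. In the cortex Cox7a1 was at 2.89% without replicate 1. Cox6b2 was not limited to these classes. With each replicate left out, its share ran from 8.12% to 9.71% in hippocampal pericyte-like cells. In hippocampal fibroblast-like cells it ran from 6.99% to 10.6%. In the whole cortical pericyte-like cluster, which was mixed with cells of the choroid type, it ran from 8.54% to 11.95%. Where cluster and own markers agreed, the cortical share fell to 0.555 times its value in that whole cluster. It fell to 0.343 times with cells classed by own markers and to 0.585 times with no mitochondrial limit. Clustered with the respiratory chain genes kept and mitochondrial share regressed, it fell to 0.328 times. The cortical pericyte-like share thus depended on the choice of cells. Microglia-like cells had 0.602% and 0.809% Cox6b2, and 0.110% and 0.169% Cox7a1. Ndufa1, a membrane arm subunit of complex I, was another gene high in choroid epithelial-like cells, with 1276, 1322 and 1300 CPM against a median class of 177 CPM. Others at least 3 times above the median class there included Ndufa4 (2447 against 560 CPM) and Cox7b (1188 against 276 CPM). Ndufc1 (924 against 265 CPM) and Ndufb6 (390 against 128 CPM) were also among them.

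Microglia-like cells, with other myeloid classes, were high in the share of Cox7a2l, a relative of Cox7a known for a role in joining complexes III and IV into supercomplexes. Neither its protein nor supercomplexes were measured in these mice. Cox7a2l made up 64.4%, 67.2% and 67.4% of the Cox7a family in the cortex (66.3%) and 62.3%, 62.1% and 63.7% in the hippocampus (62.7%), most of the rest being Cox7a2. Macrophage-like cells were close, with 60.5% and 50.1%, as were the mixed monocyte- or neutrophil-like cells with 62.4%. Endothelial-like cells had 46.5% and 40.6%, VSMC-like cells 31.9% and 31.0%, and astrocyte-like cells 19.7% and 19.9%. Choroid epithelial-like cells were lowest, at 14.4%. Within the Cox7a family, the order of the 3 largest classes for Cox7a2l was thus the reverse of their order in nuclear share.

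In level, Cox7a2l had 339, 362 and 368 CPM in cortical microglia-like cells and 128, 145 and 143 CPM in astrocyte-like cells, a log2 ratio of astrocyte-like over microglia-like cells of -1.33. In the hippocampus it had 292, 293 and 288 CPM against 108, 108 and 116 CPM, a log2 ratio of -1.36. Endothelial-like cells had 362, 402 and 407 CPM in the cortex, which overlapped with microglia-like cells. The highest levels of Cox7a2l were in cortical macrophage-like (461 CPM) and hippocampal monocyte- or neutrophil-like cells (502 CPM). Both classes were mixed, with 48.8% and 24.5% of cells kept by their own markers. The monocyte- or neutrophil-like cells also had a median of only 766 UMIs, and 40.5% carried a shared barcode. It lies at chr17:83501918-83517330.

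Cox6a2, the muscle isoform of Cox6a, was also found mostly in microglia-like cells but at a low level. It had 5.96, 5.01 and 5.36 CPM in the cortex and 5.83, 5.08 and 5.37 CPM in the hippocampus, or 3.70% and 3.65% of its family. In endothelial-like cells it had 0.0921 CPM in the cortex and 0.124 CPM in the hippocampus, from 2 UMIs in each. Monocyte- or neutrophil-like cells had 1.63% and every other class at most 0.905%. Cox7b2, known from testis, was found in astrocyte-like cells at 0.746% and 1.49% of its family, 60 and 69 UMIs. Cox8c had 0 UMIs in every class, which allows a level of up to 0.0886 CPM in cortical and 0.0736 CPM in hippocampal microglia-like cells.

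Among the 13 mitochondrial genes, mt-Atp6, a subunit of ATP synthase, and mt-Co3, of complex IV, were the most abundant in these 3′ counts, with 18.5% to 23.0% and 15.5% to 21.03% of mitochondrial UMIs over cortical classes. They were followed by mt-Co2 (12.8% to 15.4%) and mt-Co1 (8.75% to 14.7%) of complex IV and mt-Cytb (7.71% to 13.02%), the mitochondrial subunit of complex III. The complex I genes mt-Nd4, mt-Nd2, mt-Nd1 and mt-Nd3 each held between 2.80% and 8.70%, and mt-Nd5, mt-Nd4l, mt-Atp8 and mt-Nd6 were low, the last at 0.0621% to 0.140%. mt-Nd6 is the one gene on the light strand.

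For some genes the share shifted with the preparation in the same direction in every class compared. Over the 9 classes named in both, mt-Nd4 held more of the mitochondrial UMIs in the hippocampus in 9 of 9 classes, and in 8 of them all 3 hippocampal replicates lay above all 3 cortical ones (median 6.24% in the cortex and 8.05% in the hippocampus). mt-Nd1 was also higher in 9 of 9, 6 of them without overlap (medians 3.98% and 4.55%). So was mt-Nd5, with 4 of them without overlap (0.913% and 1.08%). mt-Atp6 was lower in 9 of 9, 7 of them without overlap (21.8% and 20.0%), and so was mt-Co2 (13.96% and 12.4%). The other mitochondrial genes went both ways, such as mt-Co1 (higher in 6 classes, lower in 3) and mt-Nd4l (1 and 8). These counts have no counterpart over all genes. By level, replicates did not overlap between regions for 50.3% of all genes in microglia-like cells. In endothelial-like and astrocyte-like cells this held for 55.3% and 56.4%. The classes come from the same libraries and are not independent of each other.

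**Figure D3:**
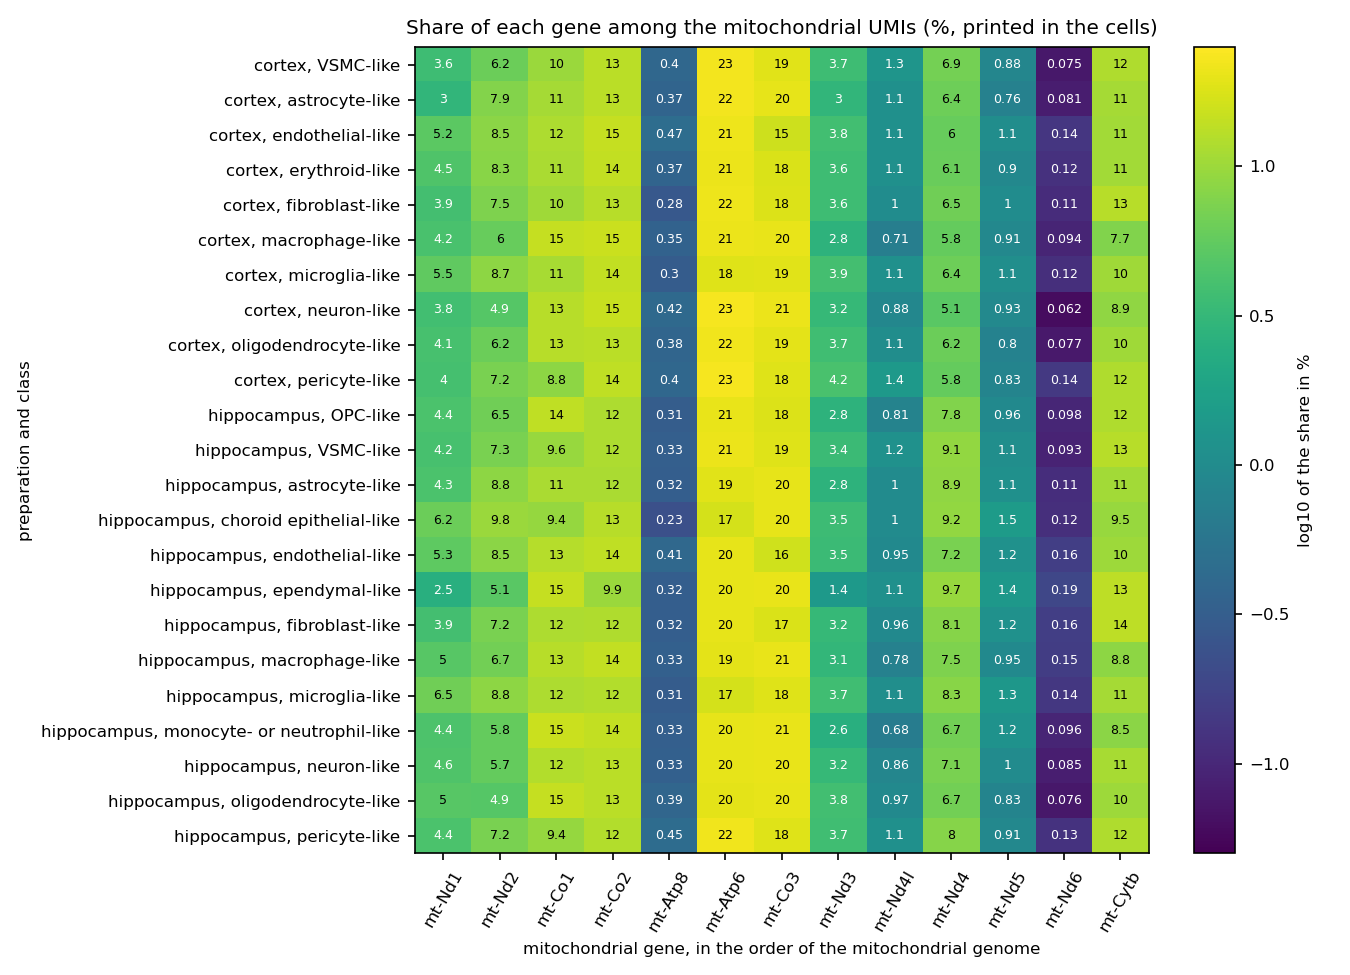
Share of each mitochondrial gene among mitochondrial UMIs (%, printed in the cells) for each class of the cortex and the hippocampus. mt-Atp6 and mt-Co3 fill the most UMIs, and mt-Nd4 has a median of 6.24% in the cortex and 8.05% in the hippocampus over the 9 classes named in both.

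The short genes mt-Atp8, mt-Nd4l and mt-Nd3 varied widely between the cortical replicates. In cortical astrocyte-like cells mt-Atp8 held 0.513%, 0.370% and 0.217% of mitochondrial UMIs, mt-Nd4l 1.41%, 1.23% and 0.779%, and mt-Nd3 3.94%, 2.91% and 2.18%. In cortical microglia-like cells mt-Atp8 held 0.431%, 0.288% and 0.192% and mt-Nd3 4.99%, 3.82% and 2.97%. Replicate 1 was the highest and replicate 3 the lowest for each of these genes in both classes. In hippocampal microglia-like cells mt-Atp8 held 0.281%, 0.298% and 0.349% and mt-Nd3 3.70%, 3.57% and 3.83%, a much narrower spread. The cause was not tested.

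mt-Atp8 and mt-Atp6 also share bases. On GRCm38 mt-Atp8 lies at chrM:7766-7969 and mt-Atp6 at chrM:7927-8607, so that the last 43 bases of the first are the start of the other. The whole of mt-Atp8 is shown, on the plus strand, because a read of the bases in capitals, those shared with mt-Atp6, could belong to both. mt-Nd4l and mt-Nd4 share 7 bases in the same way, and values of these genes are uncertain to that extent.
mt-Atp8: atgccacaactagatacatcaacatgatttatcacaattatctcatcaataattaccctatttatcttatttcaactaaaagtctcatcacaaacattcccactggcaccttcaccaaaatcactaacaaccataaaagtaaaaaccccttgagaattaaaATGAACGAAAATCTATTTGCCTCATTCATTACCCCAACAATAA

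Between the regions, most respiratory chain genes were somewhat lower in the hippocampal preparation. None of them was past 2-fold in microglia-like, endothelial-like or astrocyte-like cells, where 1.32%, 2.89% and 3.69% of all genes measured were past 2-fold in either direction. The log2 ratio of hippocampus over cortex had a median over the 13 mitochondrial genes of -0.37 in microglia-like, -0.13 in endothelial-like and -0.44 in astrocyte-like cells, with 13, 10 and 9 of the 13 below 0. Over the nuclear genes with enough UMIs the medians were -0.09, -0.08 and -0.33, with 51 of 63, 45 of 63 and 56 of 64 below 0. Over all genes the medians were 0.07, 0.12 and 0.07. With median-of-ratios size factors, which set the median of all genes to about 0 and so moved it by over 0.1 in endothelial-like cells, the medians were -0.47, -0.29 and -0.53 for mitochondrial and -0.20, -0.24 and -0.42 for nuclear genes.

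In microglia-like cells the largest differences were in mt-Co2, with 6103, 6237 and 6215 CPM in the cortex and 4081, 4182 and 4062 CPM in the hippocampus (log2 ratio -0.59), and in mt-Atp6 (-0.55). Both were apart in every replicate. mt-Nd4 did not follow, with 2755, 2826 and 2900 CPM against 2765, 2798 and 2676 CPM (-0.04). The replicates of 9 of 13 mitochondrial and 31 of 63 nuclear genes did not overlap between regions in this class, where those of 50.3% of all genes did not.

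Astrocyte-like cells held the largest difference of the 3 classes, in Cox5a, a complex IV subunit. It had 609, 692 and 716 CPM in the cortex and 358, 374 and 400 CPM in the hippocampus, a log2 ratio of -0.82. Ndufa8 of complex I (-0.64) and Sdhd of complex II (-0.63) followed among the nuclear genes. On the higher side, Cox8b had 3.04, 2.20 and 1.28 CPM in the cortex and 5.63, 4.86 and 5.16 CPM in the hippocampus (0.51). The class with the most Cox8b was named in the hippocampus only, and its part in this value was not tested. Replicates did not overlap for 54 of 64 nuclear genes, where those of 56.4% of all genes did not. By complex the medians were -0.34 for complex I, -0.22 for complex II, -0.37 for complex III and -0.28 for complex IV, and all 8 complex III genes were apart. The lists of ATP synthase (-0.34), electron carriers (-0.33) and citrate cycle genes (-0.33) had similar medians, against -0.25 for assembly factors, -0.13 for mitochondrial transcription and 0.03 for regulators of biogenesis. In microglia-like cells these lists ran from -0.10 (ATP synthase) to 0.07 (regulators), and in endothelial-like cells from -0.10 to 0.18.

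Some RNA kept in the nucleus moved with the same comparison. The list of 3 such RNAs (Malat1, Neat1 and Meg3) had a median log2 ratio of 0.60 in microglia-like, 0.53 in endothelial-like and 0.59 in astrocyte-like cells. In microglia-like and astrocyte-like cells 1 of the 3 lay just below 0 (-0.03 and -0.08). Malat1 held 109591 CPM of nuclear-encoded UMIs in the main cortical and 158576 in the main hippocampal astrocyte-like cluster. Its part in the region values was not tested. The limit on mitochondrial UMIs also mattered for astrocyte-like cells, whose mitochondrial median was -0.24 with no limit and -0.24 with a limit of 10%, whereas the nuclear median was -0.28 and -0.27.

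In endothelial-like cells the extremes were Uqcrh (552, 573 and 607 CPM in the cortex, 411, 415 and 419 CPM in the hippocampus, log2 ratio -0.47) and Cox7a1 (3.51, 3.48 and 2.83 CPM against 6.52, 6.47 and 8.50 CPM, 0.55). Both were apart in every replicate, and 36 of 63 nuclear genes were, where 55.3% of all genes were. Ndufa4l2 was likewise higher in the hippocampus, with 12.8, 10.7 and 10.2 CPM against 19.4, 16.5 and 17.8 CPM (0.49). Over whole clusters this gene was at 1527 and 1710 CPM in pericyte-like cells, and the part of RNA from that class in the endothelial-like values was not tested. The endothelial-like classes also differed in make-up. The hippocampal one held a cluster led by Gkn3 (560 cells) and a shallow cluster of 237 cells, 28.3% of them doublets. In the cortex 223 of 477 cells of a cluster led by Igfbp3 and Gkn3 were named, and a shallow cluster of 291 cells was not. The part of this in the values was not tested.

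**Figure D4:**
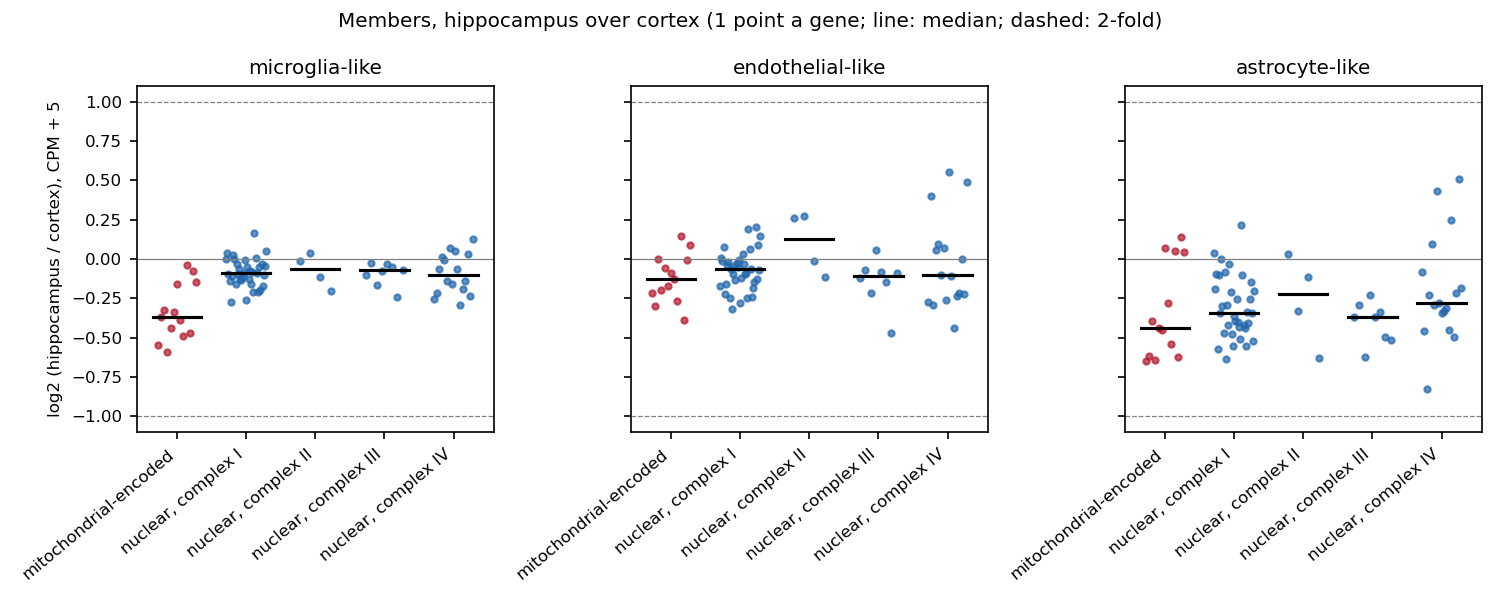
Log2 ratio of hippocampus over cortex (5 CPM added) for each respiratory chain gene in the 3 largest classes, grouped by genome and complex, with 1 point per gene. No point passes 1 or -1, and the lowest is Cox5a at -0.82 in astrocyte-like cells.

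In the mural classes the comparison depended on the purity of the cortical cluster. Over all pericyte-like cells, 4 nuclear genes were past 2-fold lower in the hippocampus, where 2.05% of all genes were: Ndufa4 (-2.97), Ndufa1 (-1.17), Cox7b (-1.16) and Uqcrh (-1.03). For Ndufa4 the cortical replicates had 830, 449 and 72.7 CPM. In cells whose cluster and own markers agreed, 0 of 75 respiratory chain genes were past 2-fold, the lowest being -0.71, where 3.36% of all genes were. In VSMC-like cells none was past 2-fold, where 3.53% of all genes were, and the medians were 0.02 for mitochondrial and 0.08 for nuclear genes.

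Within a class, cells and clusters varied as well. Both preparations held a shallow astrocyte-like cluster, of 867 cells with a median of 1662 UMIs in the cortex and 468 cells with 1452 UMIs in the hippocampus. The nuclear respiratory chain genes held 3.97% and 3.93% of nuclear-encoded UMIs in them, against 2.48% and 1.98% in the deep clusters of 1795 and 1302 cells. Malat1 was at 3818 and 4178 CPM in the shallow clusters, far below the values of the deep clusters given above. Clusters named microglia-like lay between 0.816% and 0.953%. Shallow unnamed clusters led by myeloid genes such as Tyrobp and Ccl6 were higher, at 1.45% in 188 cortical cells (1324 UMIs, Malat1 at 9992 CPM) and 1.29% in 204 hippocampal cells (1980 UMIs, 5593 CPM). A hippocampal astrocyte-like cluster of 144 cells, 23.6% of them called doublets, had 0.792%. The parts of depth and of nuclear RNA in these values were not tested.

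**Figure D5:**
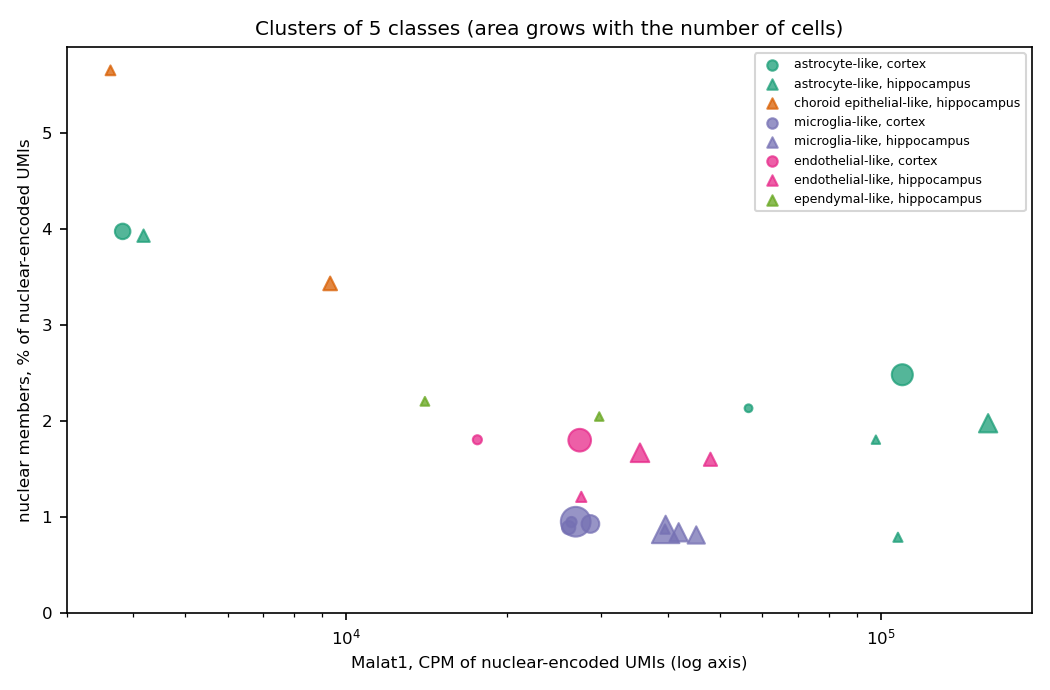
Share of nuclear-encoded UMIs held by the nuclear respiratory chain genes (%) against Malat1 (CPM of nuclear-encoded UMIs, log axis) for the clusters of 5 classes in both preparations, with the area of a point growing with its number of cells. The shallow astrocyte-like clusters lie at 3.97% and 3.93% with Malat1 at 3818 and 4178, and the deep choroid epithelial-like cluster at 5.65%.

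Across single cells, the nuclear share was higher in the highest than in the lowest mitochondrial bin of the 3 largest classes. With the cells of a class ranked by their mitochondrial share and split into 5 equal bins, the nuclear share went from 2.26% in the lowest to 3.15% in the highest bin of cortical astrocyte-like cells and from 1.75% to 2.41% in the hippocampus. In cortical microglia-like cells it went from 0.898% to 0.975% and in cortical endothelial-like cells from 1.68% to 1.90%. Malat1 was lower in the highest than in the lowest bin, at 58097 against 115075 CPM in cortical astrocyte-like cells. Depth moved with the bins of astrocyte-like cells, whose median was 6503 UMIs in the lowest and 2148.5 in the highest bin of the cortex, and 5639.5 and 3005.5 in the hippocampus. In microglia-like cells it was 4964.5 and 5958.5 in the cortex. Choroid epithelial-like cells ran the other way, with 7.29% in the lowest and 3.77% in the highest bin, at a median depth of 2701 and 1021 UMIs. Most of this fall came at the first step, to 4.09%. The highest bin was also below the lowest in ependymal-like cells (2.64% to 1.99%). So it was in cortical (3.94% to 2.88%) and hippocampal pericyte-like cells (1.94% to 1.83%). In the cortical ones the fall came at the first step, to 2.42%. The later bins rose again, at 2.40%, 2.62% and 2.88%. That cluster was mixed with cells of the choroid type, whose part in its bins was not tested. Choroid epithelial-like cells fell into a cluster of 625 cells (766 UMIs, 88.8% with a shared barcode, nuclear share 3.43%) and one of 200 cells (7008 UMIs, 5.65%). The part of depth and clusters in these bins was not tested.

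Some ventricular cells had almost no mitochondrial RNA. Among 318 choroid epithelial-like cells of at least 1000 UMIs, 30 (9.43%) had under 1% mitochondrial UMIs, 13, 6 and 11 of them in replicates 1, 2 and 3. Their nuclear respiratory chain genes held 8.87% of nuclear-encoded UMIs at a median depth of 7818 UMIs, and Malat1 was at only 134 CPM. The share was 7.99% in 36 cells of 1% to 5%, 5.28% in 72 cells of 5% to 10% and 4.05% in 180 cells above that, with Malat1 at 766, 5359 and 5370 CPM. In ependymal-like cells 23 of 132 (17.4%) were under 1%, against 22 of 1865 (1.18%) hippocampal astrocyte-like and 265 of 5832 (4.54%) hippocampal microglia-like cells. Such cells were not limited to ventricular classes. With no lower limit on UMIs, 14.3% of cortical erythroid-like and 8.82% of cortical macrophage-like cells were under 1%. The shallow unnamed myeloid clusters had 12.2% such cells in the cortex and 19.1% in the hippocampus. In the cortex, the 7 cells of at least 1000 UMIs that were of the choroid type by their own markers had 3.73% mitochondrial UMIs and a nuclear share of 8.43%. The cause of the low mitochondrial share was not tested.

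Promoters of the nuclear genes were searched for short motifs of factors known to act on respiratory genes. In the RefSeq table for GRCm38.p6, which covers 250 bases before to 50 after each start, 53 of the 67 genes were found. The NRF1 core GCGCATGC was present on either strand in 7 (13.2%, against 3.05% of 27025 promoters), the ETS motif CCGGAAG in 11 (20.8%, against 9.93%) and the YY1 motif AAGATGGC in 7 (13.2%, against 3.19%). The hypoxia core ACGTG was in 11 (20.8%, against 21.8%). These are counts of letters in a window, and Ndufa4l2, Cox4i2 and Cox4i1 were not among the 53.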

How the data were processed

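scRNA-seq (10x Genomics, 3′ chemistry) was analysed in 6 libraries, 3 technical replicates of 1 pooled suspension for each region. The values deposited by the authors are raw UMI counts per gene and barcode. Their methods name Cell Ranger 5.0.1 and mm10, whereas the matrix headers name software 3.0.1 (cortex) and 3.1.0 (hippocampus), and the gene lists differ, so genes were joined by Ensembl identifier. The depth of a class set its precision, and intervals (95%, exact binomial or Poisson) cover counting error only.

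The genes, classes and lists were chosen with earlier results of these data known. Cells with 250 to 6000 genes and under 25% mitochondrial UMIs were kept. Replicates were integrated by canonical correlation in Seurat 5.3.0 (R 4.3.3) with 2000 variable genes, 30 principal components and resolution 0.5, with the 80 genes left out and no regression of mitochondrial share. A cluster was named from at least 3 markers found in at least 20% of its cells and 2-fold above the others, out of lists for 16 cell types. Clusters that mixed types took the names of their parts at resolution 1.0, a rule set after the first names were seen. Doublets were called with Scrublet in scanpy 1.11.5 at 0.8% per 1000 barcodes and were kept. Counts were summed per class and replicate and scaled to CPM with Python 3.11.15, numpy 2.4.6, scipy 1.17.1 and pandas 2.3.3, sequences were aligned with Biopython 1.88, and plots were drawn with matplotlib 3.10.9. Log2 ratios had 5 CPM added and needed at least 50 UMIs.

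Genes named in the text were all mitochondrial genes, the isoform families, and at most 10 per comparison from the extremes. Also named were nuclear genes with at least 20 CPM and 3 times the median class in their highest class, the same class in both preparations. Ndufa1 and other genes high in choroid epithelial-like cells were named outside that rule. With 1 biological sample per region no test was made. On simulated Poisson counts the intervals covered the true value in 95.4% of cases. In simulated clusters, 16 of 16 were named correctly. These clusters were pure, with all markers of their type raised, so they cannot show how well mixed clusters are named. Alternatives were other cell filters, class definitions, scalings and low-count filters, and each replicate left out. Prep 2 was not analysed here.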

Additional observations from a re-analysis of the deposited data

Results flagged for a closer look

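Some respiratory chain genes moved in opposite directions between the regions in different classes, with every hippocampal replicate on the one side of every cortical replicate in one class and on the other side in the other. These genes were picked for this pattern, and the difference was not tested. The replicates of 55.3% of all genes in endothelial-like and 56.4% in astrocyte-like cells did not overlap between regions. The share of all genes with opposite directions was not computed. For Cox4i2 the log2 ratio of hippocampus over cortex was 0.40 in endothelial-like cells (4.73, 5.98 and 3.25 CPM in the cortex, 7.45, 6.11 and 9.85 CPM in the hippocampus) and -0.46 in astrocyte-like cells (12.3, 12.7 and 11.9 CPM against 7.36, 5.97 and 9.43 CPM), a difference of 0.86. For Cox7a1 it was 0.55 and -0.35, a difference of 0.90. Cox4i2 in both classes and Cox7a1 in endothelial-like cells were low enough for the 5 CPM added to weigh on these ratios. Over whole clusters Cox4i2 was at 823 CPM in cortical and 865 CPM in hippocampal pericyte-like cells, and the part of RNA from that class was not tested. Nor was the part of the unlike make-up of the endothelial-like classes. For Sdhb, the iron-sulfur subunit of complex II, the log2 ratio was 0.28 and -0.33, a difference of 0.61. For Ndufs7 of complex I it was 0.21 and -0.25, a difference of 0.46. Ndufc2 ran the other way, at -0.25 in endothelial-like and 0.22 in astrocyte-like cells, a difference of -0.47, and differed by 0.43 between astrocyte-like and microglia-like cells.

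Barcodes left out of the comparisons held part of the mitochondrial RNA. Those in which mitochondrial genes made up at least 50% of UMIs numbered 207, 217 and 255 in the cortical and 81, 102 and 89 in the hippocampal replicates, and most of the cortical ones had under 250 genes (177, 190 and 224). They held 8.25%, 9.05% and 10.2% of all mitochondrial UMIs in the cortex and 5.18%, 6.41% and 7.97% in the hippocampus. In their make-up, mt-Atp6 was at 22.3% of mitochondrial UMIs against 21.1% in kept cells of the cortex, and at 19.4% against 19.0% in the hippocampus. In the cortex mt-Nd1 was at 3.37% against 4.36%, mt-Nd5 at 0.683% against 0.941% and mt-Nd4l at 0.873% against 1.14%.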

How the results depend on the processing

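Of 139 values recomputed for the 13 chief results, 103 stayed and 36 moved. These values were shares and counts, which have no direction, so a reversal could not be recorded among them. A share stayed when it changed by less than 1 SD of the replicates. A count of genes past 2-fold between regions stayed when it was unchanged. The SD was wide for Ndufa4l2 in the whole cortical pericyte-like cluster, so larger changes could count as staying there. Microglia-like cells stayed below endothelial-like and these below astrocyte-like cells in mitochondrial share under every setting run. The ratio of astrocyte-like to microglia-like cells nevertheless ran from 1.87 to 3.37. Of 526 values for 57 other results, 103 moved. The mitochondrial share of cortical astrocyte-like cells was 7.84% under a 10% limit, 13.3% with no limit, 12.2% without doublets, 12.1% where cluster and own markers agreed (chosen after seeing the data) and 12.8% as a mean of cells. In hippocampal astrocyte-like cells it was 6.69%, 11.3% and 9.04% under the first 3 of these and 9.16% as a mean of cells. Cortical endothelial-like cells had 6.20% with cells classed by own markers, 5.85% under the 10% limit and 6.17% as a mean of cells, and hippocampal ones 5.69%, 5.30% and 6.08%, with 5.56% without doublets and 5.79% with no limit. Cortical microglia-like cells had 4.48% by own markers, 4.50% clustered with the 80 genes kept and mitochondrial share regressed, 4.20% under the 10% limit, 4.48% with no limit and 4.26% as a mean of cells, and hippocampal ones 3.49% by own markers, 3.26% under the 10% limit and 3.20% as a mean of cells. In pericyte-like cells the Ndufa4l2 share was 97.1% in the cortex where cluster and own markers agreed, and in the hippocampus 89.3% by own markers, 97.9% without doublets, 95.7% with no limit and 97.7% thinned. The Cox4i2 share was 33.1% clustered in that way, 51.6% with no limit and 53.6% where markers agreed in the cortex, and 49.6% by own markers, 55.9% without doublets and 59.0% thinned in the hippocampus. Apart from the last alternative's purer cells, the cause was not tested.

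With each replicate left out, the mitochondrial share ran from 11.9% to 12.004% and 8.79% to 8.96% in cortical and hippocampal astrocyte-like cells, 6.05% to 6.12% and 5.58% to 5.62% in endothelial-like cells, and 4.35% to 4.42% and 3.30% to 3.34% in microglia-like cells. Pericyte-like Ndufa4l2 ran from 67.3% to 85.6% and 96.3% to 97.1%, and Cox4i2 from 39.3% to 47.2% and 53.6% to 54.8%. Genes past 2-fold between regions stayed at 0 in the 3 largest classes. Without replicate 1 the median of mitochondrial genes between regions was -0.28 in microglia-like, -0.06 in endothelial-like and -0.30 in astrocyte-like cells. No paired analysis was possible because the replicate numbers are technical and no result comes from a test.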
